A study of Homo sapiens with 8 samples.

Results

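Peaks of TAZ and YAP were compared in HuCCT1, an established human cell line from a bile duct cancer (cholangiocarcinoma). The members were all 153 peaks of the TAZ list and all 454 peaks of the YAP list, 607 of the 51828 peaks in the 5 lists of the series. They were taken by list and not by any measured value. A TAZ peak and a YAP peak counted as shared when they had at least 1 bp in common, and otherwise as TAZ-only or YAP-only.

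The series held 8 chromatin immunoprecipitation and sequencing (ChIP-seq) libraries, 1 per group, from cells cross-linked with 1% formaldehyde for 10 minutes and chromatin sheared to 200 to 500 bp. The groups used here were the libraries labelled YAP, TAZ, TEAD1, TEAD4 and HAYAP5SA, the last written HA-YAP5SA below. YAP5SA is the usual name of a YAP form whose sites for the Hippo kinases are mutated, and HA of a short protein tag. The labels name no vector, promoter, clone or treatment, and give HuCCT1 for every group. The title of the TAZ library names TAZ and WWTr1, while its antibody field reads (WWTr1). No control library (input, IgG or GFP) was used here, so whether the same places carry signal without a specific antibody was not tested. With 1 library per side no difference between the lists has a replicate check, the sequencing depth is unknown, and intervals are exact 95% binomial intervals that cover counting error over peaks alone. Where a count is 0, the limit given is not such an interval but the share that 3 peaks would make.

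YAP and TAZ (encoded by YAP1 and WWTR1) are paralogous transcriptional coactivators at the end of the Hippo kinase pathway. Neither binds DNA by itself, and both reach chromatin mainly through the TEAD transcription factors, at enhancers and promoters of genes for growth, matrix and the cytoskeleton. Human centromeres and the sequence around them consist largely of satellite repeats, which hg19 shows as a gap in each chromosome with repeat-rich sequence at its edges. Scaffolds are assembled pieces without a position in hg19: some are assigned to a chromosome and others to none, and many hold repeats of the same kinds. How reads that align to several copies were treated is not given in the sources used here.

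TAZ and YAP shared few peaks, and the shared peaks lay almost entirely beside centromere gaps and on 1 scaffold. Of the 153 TAZ peaks, 35 (22.9%, interval 16.5 to 30.4%) overlapped a YAP peak, and of the 454 YAP peaks, 48 (10.6%, 7.90 to 13.8%) overlapped a TAZ peak. The remaining 118 TAZ peaks and 406 YAP peaks were found in 1 list alone. By the same rule YAP peaks overlapped 0.21% of TEAD1, 0.624% of TEAD4 and 6.49% of HA-YAP5SA peaks. TAZ peaks overlapped 0% of TEAD1, 0.0492% of TEAD4 and 0.118% of HA-YAP5SA peaks. The denominators of these shares are lists of 38186, 12188 and 847 peaks, so they cannot be set against the shares above. Out of the 454 YAP peaks, 92 (20.3%) overlapped TEAD1, 84 (18.5%) TEAD4 and 54 (11.9%) HA-YAP5SA. Out of the 153 TAZ peaks these were 0, 6 (3.92%) and 1 (0.654%).

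The shared peaks formed 57 overlapping pairs, because broad regions were divided differently in the lists. A single YAP peak was met by 19 of the shared TAZ peaks, while 11 met 2, 4 met 3 and 1 met 4 YAP peaks. In the other direction 40 YAP peaks met 1 TAZ peak, 7 met 2 and 1 met 3. The overlap had a median of 974 bp (interquartile range 659 to 2008 bp, from 4 to 9243 bp), and in 42 of the 57 pairs at least 90% of the shorter peak was covered. In 23 pairs the starts or the ends of both peaks lay within 50 bp of each other, and in 2 pairs both edges did. With centres at most 500 bp apart as the rule instead, 20 TAZ peaks (13.1%) and 20 YAP peaks (4.41%) were shared.

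Counted in bases, the shared part was larger for TAZ than for YAP. TAZ peaks covered 186 kb and YAP peaks 588 kb, with 94.4 kb in common. This was 50.7% of the TAZ bases and 16.05% of the YAP bases, or 13.9% of all bases in either list. Without chromosome X and scaffold gl000199 the last share was 5.20%.

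Since neighbouring peaks may share a source, which was not tested, peaks of both lists at most 25 kb apart were also joined into 196 sites. Of these, 14 (7.14%, interval 3.96 to 11.7%) held both TAZ and YAP, 48 held TAZ alone and 134 held YAP alone. The 14 sites were 22.6% (12.9 to 34.97%) of the 62 sites with TAZ and 9.46% (5.27 to 15.4%) of the 148 with YAP. They held 65 TAZ and 162 YAP peaks, and in 10 of them peaks of the lists overlapped. A single peak made up 40 of the TAZ-only and 107 of the YAP-only sites.

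By chromosome, the sharing was concentrated on X and on gl000199, a scaffold assigned to chromosome 9. Chromosome X held 21 TAZ peaks, of which 18 (85.7%, interval 63.7 to 97.0%) overlapped YAP, and 35 YAP peaks, of which 23 (65.7%, 47.8 to 80.9%) overlapped TAZ. On gl000199 all 8 TAZ peaks overlapped YAP, and 14 of its 53 YAP peaks (26.4%, 15.3 to 40.3%) overlapped TAZ. Together they held 26 of the 35 shared TAZ peaks and 37 of the 48 shared YAP peaks. Elsewhere 9 of 124 TAZ peaks (7.26%, 3.37 to 13.3%) and 11 of 366 YAP peaks (3.01%, 1.51 to 5.31%) were shared. These 9 TAZ peaks lay on chromosomes 17 (3 peaks), 5, 8, 13, 16, 21 and Y (1 each).

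**Figure D1:**
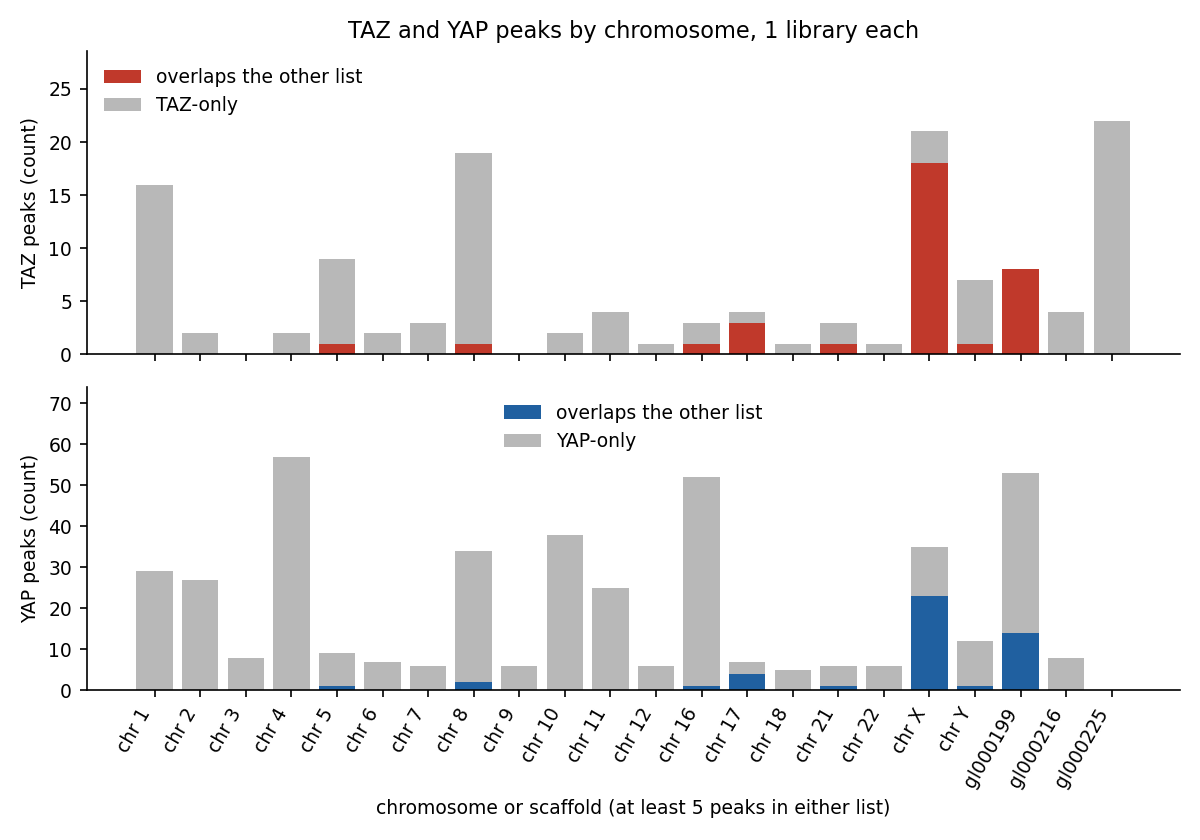
Number of TAZ peaks (top) and YAP peaks (bottom) on each chromosome or scaffold with at least 5 peaks in either list; the coloured part of a bar overlaps the other list and the grey part does not. The coloured parts stand mainly at chromosome X (18 TAZ and 23 YAP peaks) and gl000199 (8 and 14), while the tall YAP bars of chromosomes 4, 10 and 16 and the tall TAZ bar of gl000225 are almost or wholly grey.

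Several other places held many more peaks of one list than of the other. Chromosome 4 held 57 YAP peaks and 2 TAZ peaks, chromosome 16 held 52 and 3, and chromosome 10 held 38 and 2. Chromosome 2 held 27 YAP and 2 TAZ peaks, and chromosome 11 held 25 and 4. Of all TAZ and YAP peaks on these chromosomes only 1 of each list, on chromosome 16, overlapped. The opposite case was the scaffold gl000225, which carried 22 TAZ peaks, 14.4% of the TAZ list, and no YAP peak. Chromosomes 8 and 1 held many peaks of both lists with little or no overlap. Chromosome 8 held 19 TAZ and 34 YAP peaks, of which 1 and 2 overlapped the other list, and chromosome 1 held 16 and 29, of which none did. Chromosome Y held 7 TAZ and 12 YAP peaks, and 1 of each overlapped.

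Scaffolds held 45 TAZ peaks (29.4% of the list, interval 22.3 to 37.3%) and 66 YAP peaks (14.5%, 11.4 to 18.1%). They held 1 HA-YAP5SA peak (0.118%), 48 TEAD1 peaks (0.126%) and 15 TEAD4 peaks (0.123%). TAZ peaks fell on 10 scaffolds and YAP peaks on 6, of which 3 carried both lists and 1, gl000199, carried overlapping peaks. On the 7 scaffolds with TAZ and without YAP there were 31 TAZ peaks. A site counted once lowers both shares, to 16.1% for TAZ and 4.67% for YAP, since gl000225 and gl000199 each form 1 long site.

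On the chromosomes, both lists lay close to centromere gaps. Of the 108 TAZ peaks placed on chromosomes, 55 (50.9%, interval 41.1 to 60.7%) had their nearest edge within 5 Mb of the centromere gap, and of the 388 placed YAP peaks 233 (60.1%, 55.0 to 65.0%) did. The same distance took in 5.09% of TEAD1, 4.85% of TEAD4 and 4.85% of HA-YAP5SA peaks. Within 100 kb the shares were 29.6% for TAZ, 32.0% for YAP and 0.236% for HA-YAP5SA, and within 100 kb of a gap lay 7 of the 38138 placed TEAD1 peaks. The median distance was 3774 kb for TAZ, 560 kb for YAP and 40344 kb for TEAD1. Counting each site once, 46.2% of TAZ sites and 32.2% of YAP sites on chromosomes were within 5 Mb. The YAP share is thus carried in part by dense runs.

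**Figure D2:**
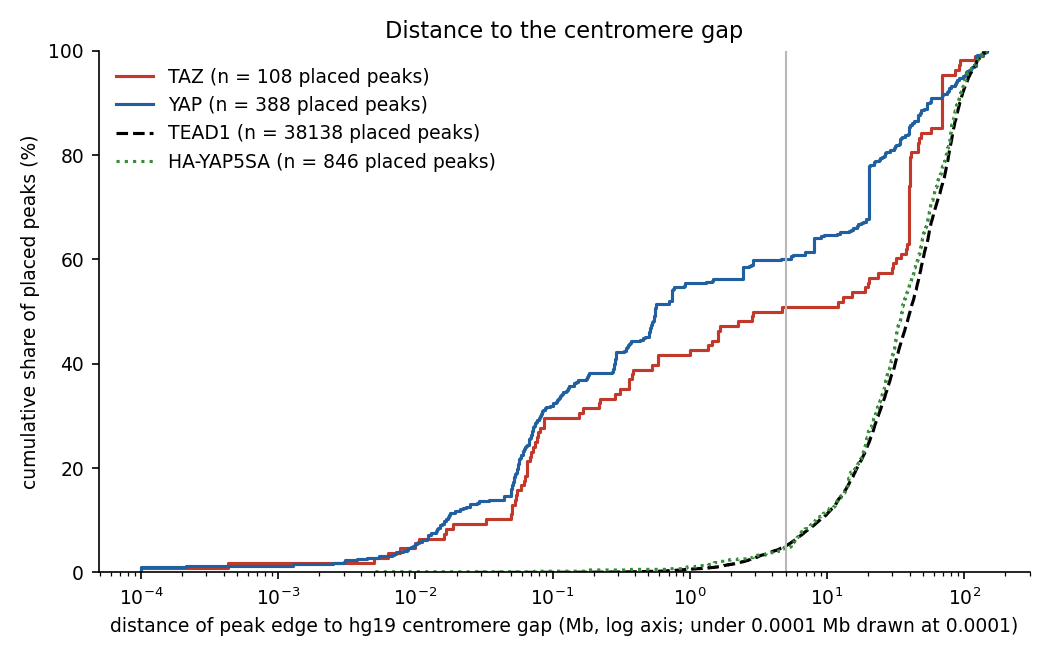
Cumulative share of peaks on chromosomes (vertical axis, %) by the distance of their nearest edge to the hg19 centromere gap (horizontal axis, Mb, log scale), for TAZ, YAP, TEAD1 and HA-YAP5SA. At the grey line at 5 Mb the TAZ curve has reached 50.9% and the YAP curve 60.1%, against 5.09% for TEAD1; the later step in the YAP curve near 20 Mb is a run on chromosome 16, and the step in the TAZ curve near 40 Mb a pair of sites on chromosome 8.

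On the chromosomes, sharing was concentrated within 100 kb of a gap. At that distance 23 of 32 TAZ peaks (71.9%, interval 53.3 to 86.3%) and 30 of 124 YAP peaks (24.2%, 16.96 to 32.7%) were shared. From 100 kb to 1 Mb these were 1 of 13 TAZ peaks and 1 of 91 YAP peaks, and from 1 to 5 Mb 1 of 10 and 1 of 18. Beyond 5 Mb 2 of 53 TAZ peaks (3.77%, 0.460 to 12.98%) and 2 of 155 YAP peaks (1.29%, 0.157 to 4.58%) were shared. Chromosome X carried much of the first class: without it, 5 of 13 TAZ peaks (38.5%, 13.9 to 68.4%) and 7 of 90 YAP peaks (7.78%, 3.18 to 15.4%) within 100 kb were shared. The 32 TAZ peaks came from 7 sides of gaps, with 19 on chromosome X. Many of them adjoin, and the intervals take them as independent, so they can be too narrow.

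More centromere edges had a YAP peak than a TAZ peak, but the YAP list is longer, with 388 placed peaks against 108. The shares of placed peaks within 100 kb of a gap were alike, 32.0% for YAP and 29.6% for TAZ. Whether list length accounts for the difference in edges was not tested. Of the 48 sides of the 24 gaps, 17 had a YAP peak within 100 kb, 7 had a TAZ peak and 6 had both. The 6 were both sides of chromosome X, the lower-numbered side of chromosomes 1, 8 and 17 and the higher-numbered side of chromosome 5. TAZ without YAP was seen at 1 side, on chromosome 19. Outside chromosome X, the chromosomes with at least 10 YAP peaks within 5 Mb of the gap held 143 such YAP peaks (47 on chromosome 4, 33 on 10, 25 on 8, 20 on 2 and 18 on 11) and 4 TAZ peaks. In 5 of the 48 sides a TAZ or YAP peak came within 1 kb of the gap, and in none a TEAD1 peak.

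The site with the most peaks, 132 kb of gl000199 (34297 to 166429), held 8 TAZ and 53 YAP peaks. YAP covered 68.3% of its bases and TAZ 24.03%. The TAZ peaks there were 1188 to 7385 bp wide with scores from 83.4 to 327. The score is the authors' own value for each peak, on a scale that is not stated, so it is used here only to order peaks within a list. All 8 overlapped YAP, while 39 of the 53 YAP peaks did not overlap TAZ.

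The chromosome X run (61682072 to 61723527) began 50.1 kb beyond the gap and held 16 TAZ and 27 YAP peaks over 41.5 kb. TAZ covered 62.5% and YAP 87.8% of it, and 15 of the 16 TAZ peaks overlapped YAP. Several boundaries matched closely: a TAZ peak from 61682595 to 61683927 met a YAP peak from 61682595 to 61683943. On the other side of the same gap, 18.5 kb (58563468 to 58582014) held 3 TAZ and 7 YAP peaks, covering 84.4% and 98.2%. This run ended 49.998 kb before the gap, and the last TAZ and the last YAP peak shared the end position 58582014. The TAZ peaks there have ranks 1, 2 and 23 in their list, and the highest-ranked YAP peak rank 18.

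At the gap of chromosome 17 the lists covered largely the same bases but divided them at different places. The run from 22244504 to 22263009 held 3 TAZ peaks covering 97.3% and 4 YAP peaks covering 93.1%, and over the chromosome the bases in common were 87.4% of those in either list. It contains a YAP peak at the list's highest score, 3100 (22247311 to 22261714), the single one of the 10 highest-ranked YAP peaks that overlapped TAZ. The TAZ peaks within it had scores of 122, 250 and 167 and ranks of 67, 12 and 37. The last YAP peak crossed the edge of the gap by 3 bp.

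Smaller shared sites lay on chromosomes 8, 5, Y and 21. Before the gap of chromosome 8, 1 TAZ peak (43833237 to 43838837, score 269) overlapped 2 of 8 YAP peaks, and these ended 34 bp before the gap. Beyond that gap, 9 YAP peaks covered 88.3% of 17.8 kb with no TAZ peak. On chromosome 5, 7 TAZ and 5 YAP peaks followed each other over 28.9 kb that began 5.01 kb from the gap, yet only 1 of each overlapped. On chromosome Y (13455346 to 13489542) 4 TAZ and 3 YAP peaks gave 1 overlap. The chromosome 21 peak, 1.46 Mb from the gap, had nearly the same edges in both lists: 9825440 to 9827641 for TAZ (score 694, rank 3) and 9825439 to 9827646 for YAP (score 614, rank 26). It was the single shared peak that also overlapped TEAD4 and HA-YAP5SA.

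The 10 shared TAZ peaks with the highest scores repeat this geography. They were 5 peaks on chromosome X, 2 on gl000199 and 1 each on chromosomes 21, 8 and 17. On X they were 58566358 to 58577584 (score 1392), 58577586 to 58581307 (1031), 61697622 to 61700297 (372), 61703498 to 61705855 (293) and 61694885 to 61697050 (271). On gl000199 they were 103564 to 110948 (score 327), which met a YAP peak of score 842, and 73286 to 79917 (score 284), which met 4 YAP peaks. The chromosome 17 member was 22247005 to 22252463 (score 250). Over the 35 shared TAZ peaks, the TAZ score and the highest score of the YAP peaks met had a Spearman correlation of 0.63. This is a description across peaks, many of which adjoin each other, and wide peaks score high in both lists.

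Away from gaps and scaffolds the lists shared 2 peaks, both narrow and of modest score. On chromosome 13 a TAZ peak (110076472 to 110076749, score 93.7, rank 108) met a YAP peak (110076408 to 110076727, score 91.1, rank 379). On chromosome 16 a TAZ peak (58570897 to 58571136, score 117, rank 71) met a YAP peak (58570834 to 58571119, score 96.8, rank 351). Neither overlapped a TEAD1, TEAD4 or HA-YAP5SA peak.

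The chromosome 16 pair stood inside a run unlike those beside the gaps. From 58555042 to 58633252, 20.2 Mb from the gap, 39 YAP peaks, 8.59% of the YAP list, lay over 78.2 kb. All were narrow, from 127 to 390 bp with a median of 224 bp, and between neighbours lay a median of 1260.5 bp (from 73 to 14199 bp), so that the peaks covered 11.4% of the run. Their scores ran from 95.2 to 374. None of the 39 overlapped TEAD1, TEAD4 or HA-YAP5SA, and TAZ had 1 peak there.

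TAZ had a run of similar shape on chromosome 1 (52924014 to 52975384), 68.6 Mb from the gap. It held 10 TAZ peaks of 93 to 250 bp (median 143 bp), with a median of 3581 bp between neighbours, covering 2.98% of 51.4 kb. YAP had no peak there, and the nearest YAP peak to the highest of them lay 9.01 Mb away. The run included the 2 highest-scoring TAZ-only peaks, 52947095 to 52947314 (score 659, rank 4) and 52937618 to 52937783 (score 368, rank 6). None of the 10 overlapped TEAD1, TEAD4 or HA-YAP5SA. No hg19 annotation was used, so the genes at either run are not named. Whether the narrow peaks of these runs follow the exons of a gene, and whether their DNA came from chromatin, was not tested. Without both runs 23.9% of 142 TAZ peaks and 11.3% of 415 YAP peaks were shared.

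**Figure D3:**
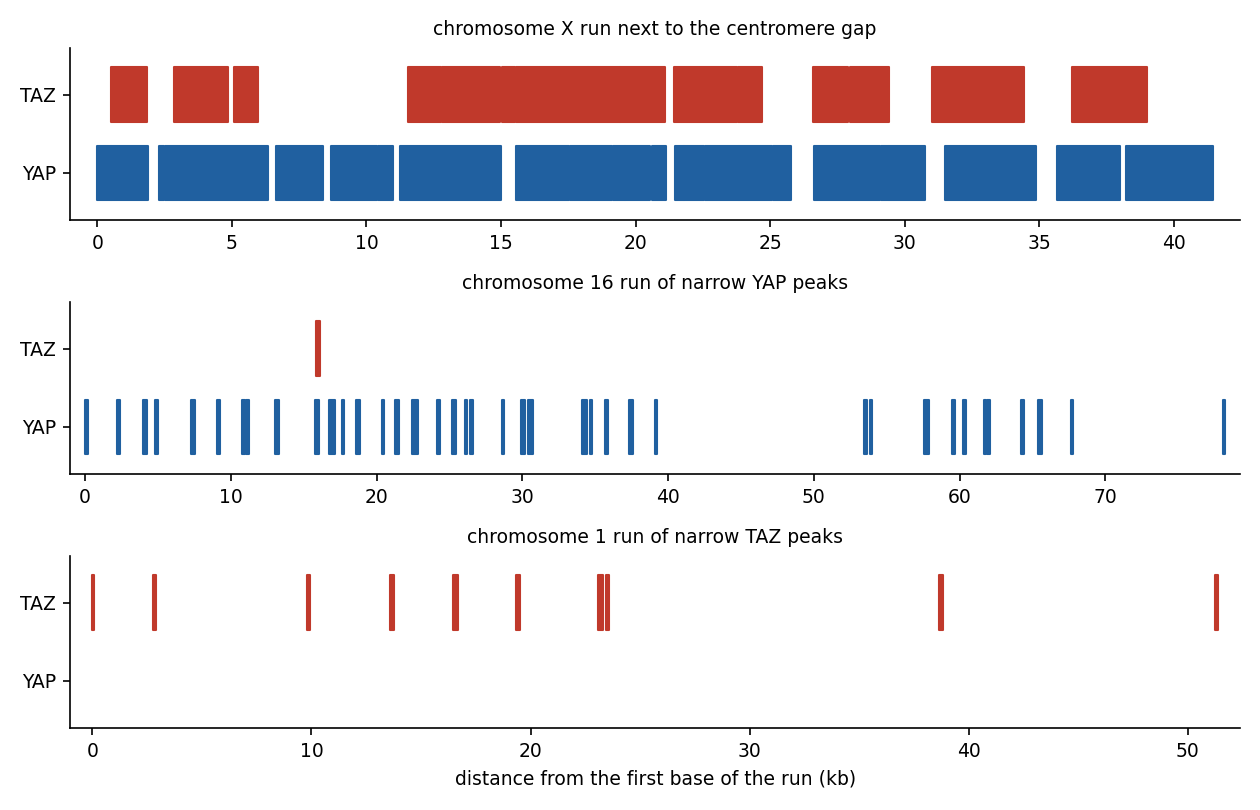
TAZ peaks (red, upper row) and YAP peaks (blue, lower row) drawn to scale along 3 runs, with the distance in kb from the first base of each. On chromosome X broad peaks of both lists fill 91.3% of 41.5 kb together; on chromosome 16 there are 39 narrow YAP peaks and 1 TAZ peak, and on chromosome 1 there are 10 narrow TAZ peaks and no YAP peak.

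Elsewhere the lists came close without overlapping. On chromosome 8, 39.9 Mb from the gap, 83.5 kb (86757087 to 86840549) held 13 TAZ and 5 YAP peaks and no shared base, and a neighbouring site (86555757 to 86576230) held 4 TAZ peaks and 1 YAP peak, again without overlap. The TAZ peaks of the larger site were 395 to 1190 bp wide and the YAP peaks 544 to 988 bp, and at 1 place a TAZ and a YAP peak adjoined with 0 bp between them. If the starts in the lists were counted from 1, that pair would share 1 bp. The TAZ-only peaks at 86757949 to 86759121 (score 233), which lay 185 bp from a YAP peak, and at 86776605 to 86777395 (score 229) were among the 10 highest TAZ-only peaks. Over both lists, 6 of the 118 TAZ-only peaks had a YAP peak within 1 kb and 30 within 25 kb. A further 33 were on a chromosome or scaffold with no YAP peak at all. Of the 406 YAP-only peaks, 18 had a TAZ peak within 1 kb and 102 within 25 kb.

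Among TAZ-only sites, the scaffold gl000225 carried the most peaks, 22 over 129 kb with widths of 504 to 2173 bp, scores of 80.2 to 230 and 19.5% of the bases covered. The chromosome 1 run followed, and then gl000193 of chromosome 4 and a stretch of gl000216, with 4 peaks each. The 5 highest-scoring TAZ-only peaks were 3 of the chromosome 1 run, the chromosome 8 peak of score 233 and a peak on chromosome 7 (56438136 to 56440883, score 246), which overlapped TEAD4. Outside gaps, scaffolds and the runs of chromosomes 1 and 8, the TAZ list had 26 peaks, on 18 chromosomes. These had a median width of 245.5 bp, a median score of 92.6 and a highest score of 218, and 0 overlapped TEAD1, 1 TEAD4 and 0 HA-YAP5SA.

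Among YAP-only sites, those with the most peaks were on chromosome 4: 25 peaks from 49093263 to 49158714, 501 kb from the gap, and 18 peaks from 49633652 to 49659903 that ended 214 bp before it. Next came chromosome 11 with 17 peaks (51569631 to 51593455) and chromosome 10 with 16 (42527209 to 42546231). The 5 highest-scoring YAP-only peaks all had the score 3100. They were a pair on chromosome Y (58819364 to 58870473 and 58870601 to 58902580) and 1 each on chromosomes 2 (92312485 to 92326178), 10 (42386890 to 42397295) and 7 (61967156 to 61973948). The chromosome 2 peak crossed the edge of its gap by 7 bp, and the nearest TAZ peak lay 4.67 Mb away. On chromosome Y the nearest TAZ peak was 86.2 kb from the second of the pair.

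Shared peaks were wider than peaks of 1 list alone. The 35 shared TAZ peaks had a median width of 2008 bp (interval 1459 to 2469 bp) against 614 bp (481 to 753 bp) for the 118 TAZ-only peaks. The 48 shared YAP peaks had a median of 1305 bp (881 to 2425 bp) against 562.5 bp (483 to 660 bp) for the 406 YAP-only peaks. More than 1 kb was spanned by 29 of the 35 shared TAZ peaks and by 28 of the TAZ-only ones. A wider peak meets another more easily, so the overlap rule itself favours wide peaks. Among peaks on scaffolds or within 5 Mb of a gap the medians were 2166 and 710 bp for TAZ and 1488 and 805 bp for YAP. Without chromosome X and gl000199 the medians were 2202 bp (278 to 5601 bp) for 9 shared and 645 bp (504 to 764 bp) for the other TAZ peaks. Those of YAP were then 1627 bp (320 to 3681 bp) for 11 shared peaks and 491 bp (399 to 570 bp) for the others, so that the intervals overlap in both lists. On chromosome X and gl000199 alone, the YAP medians were 1261 bp (881 to 2584 bp) for 37 shared and 955 bp (812 to 1333 bp) for 51 YAP-only peaks. These intervals overlap too. For TAZ they were 1936.5 bp for 26 shared and 230 bp for only 3 TAZ-only peaks.

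Shared peaks also ranked higher. The median percentile of the score was 79.7 (interval 70.6 to 88.2) for shared and 42.8 (34.0 to 50.3) for TAZ-only peaks within the TAZ list. Within the YAP list it was 75.9 (63.2 to 89.9) for shared and 47.2 (42.5 to 52.0) for YAP-only peaks. Without chromosome X and gl000199 the YAP percentiles were 56.2 (22.9 to 96.0) for 11 shared peaks and 48.0 (42.3 to 54.0) for the others, whose intervals overlap. Those of TAZ were then 66.7 (35.9 to 93.5) for 9 shared peaks and 42.5 (33.3 to 49.7), which overlap too. No test was made, since peaks of 1 library are not replicates.

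**Figure D4:**
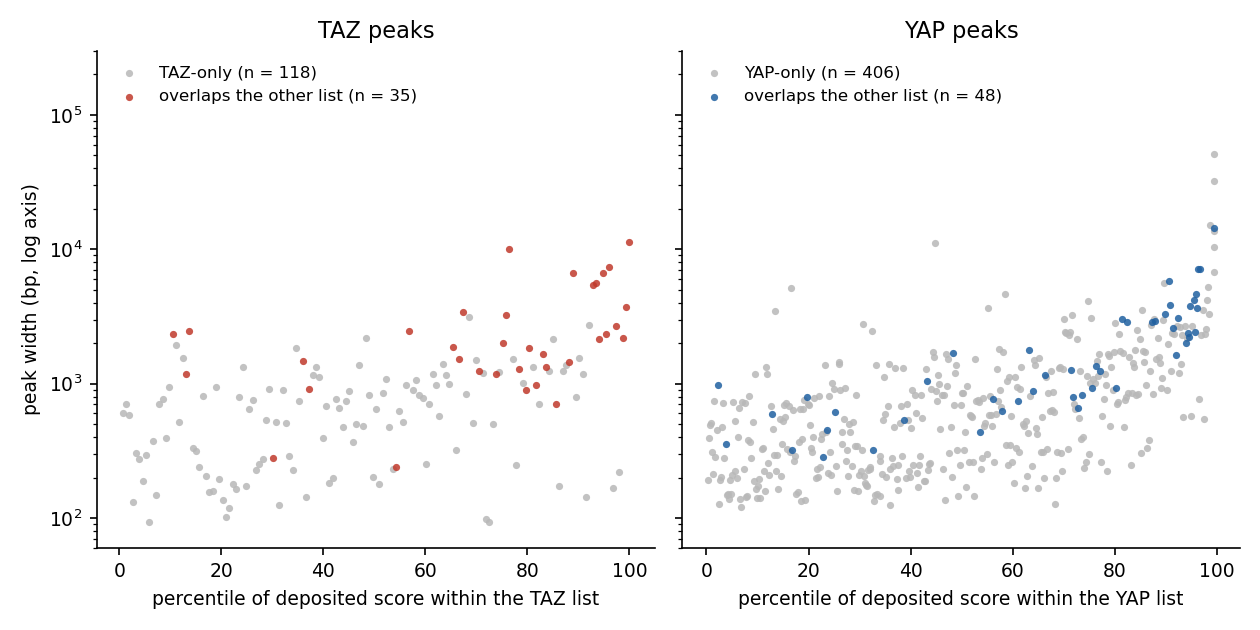
Width of each TAZ peak (left) and YAP peak (right) in bp on a log axis against the percentile of its score within its own list; coloured points overlap the other list and grey points do not. Coloured points gather at the upper right, with median widths of 2008 bp for TAZ and 1305 bp for YAP, while the widest YAP peaks at the far right are mostly grey.

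The shares differed at the very top of the lists. Of the 10 highest-scoring TAZ peaks 8 overlapped YAP (80%, interval 44.4 to 97.5%), whereas of the 10 highest-scoring YAP peaks 1 overlapped TAZ (10%, 0.253 to 44.5%). The 8 TAZ peaks lay on chromosome X, gl000199 and chromosome 21 alone, and 6 YAP peaks tie at the top score of 3100. A TAZ peak could meet any of 454 YAP peaks, and a YAP peak any of 153 TAZ peaks. Whether list length accounts for the difference was not tested. Over the quartiles of the TAZ score, from the highest, 21 of 38, 8 of 38, 3 of 38 and 3 of 39 peaks were shared. For YAP these were 25 of 113, 11 of 114, 4 of 113 and 8 of 114. Ordered by width, 24 of the 38 widest TAZ peaks and 24 of the 113 widest YAP peaks were shared. None of the 114 narrowest YAP peaks was, which allows up to 2.63%.

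Width and score were then combined. Among TAZ peaks whose score reached the median, 25 of 44 wider than 1 kb (56.8%, interval 41.0 to 71.7%) and 4 of 33 narrower ones (12.1%, 3.40 to 28.2%) were shared. Below the median score these were 4 of 13 (30.8%, 9.09 to 61.4%) and 2 of 63 (3.17%, 0.387 to 11.002%). For YAP peaks whose score reached the median, the shares were 26 of 115 (22.6%, 15.3 to 31.3%) and 10 of 112 (8.93%, 4.36 to 15.8%). Below the median YAP score the shares were close, 2 of 27 (7.41%, 0.91 to 24.3%) and 10 of 200 (5%, 2.42 to 9.003%). When the YAP list was shortened by score to the length of the TAZ list, 18.3% of TAZ and 18.95% of YAP peaks were shared.

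**Figure D5:**
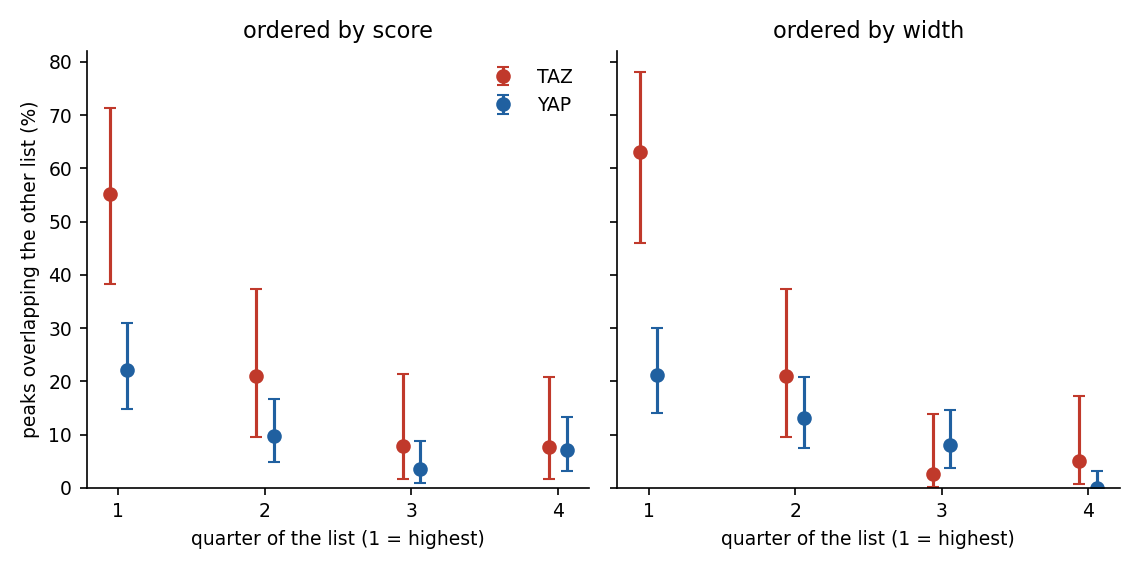
Share of peaks that overlap the other list (%, points, with exact 95% binomial intervals as bars) in each quartile of the TAZ list (red) and the YAP list (blue), ordered by score (left) or width (right), 1 being the highest. In TAZ the share is 55.3% in the highest score quartile and 7.69% in the lowest, and in YAP 22.1% and 7.02%.

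Overlap with TEAD1 was found among YAP-only peaks and not among shared ones. Of the 48 shared YAP peaks 0 met a TEAD1 peak (a count of 0 allows up to 6.25%), against 92 of 406 YAP-only peaks (22.7%, interval 18.7 to 27.05%). TEAD4 was met by 1 shared and 83 YAP-only peaks (20.4%, 16.6 to 24.7%), and HA-YAP5SA by 1 shared and 53 YAP-only peaks (13.1%, 9.93 to 16.7%). Position moves with this difference. Chromosome X and gl000199 held 37 of the 48 shared YAP peaks. TEAD1 had 0 peaks on gl000199 and came no closer than 780336 bp to the gap of X. The 51 YAP-only peaks of X and gl000199 likewise met no TEAD1 peak. In all, 46 of the 48 shared YAP peaks lay on scaffolds or near gaps, where 29 of 253 YAP-only peaks (11.5%, 7.81 to 16.05%) overlapped TEAD1. Away from both, 63 of 153 YAP-only peaks (41.2%, 33.3 to 49.4%) overlapped TEAD1, 67 (43.8%, 35.8 to 52.0%) TEAD4 and 52 (34.0%, 26.5 to 42.1%) HA-YAP5SA. Without the narrow run of chromosome 16 these were 54.3%, 57.8% and 44.8% of 116 peaks, counted with the shared peak on chromosome 13. Leaving out the broad YAP peaks at the heterochromatin edges of chromosomes 16 and Y as well, they were 61.2%, 59.2% and 50.5% of 103 peaks.

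TAZ peaks overlapped TEAD1 in neither class. Of the 35 shared TAZ peaks 0 overlapped TEAD1, 1 TEAD4 and 1 HA-YAP5SA, and of the 118 TAZ-only peaks 0, 5 and 0 did. The 0 of 118 allows a share with TEAD1 of up to 2.54%. Even the 51 TAZ-only peaks away from gaps and scaffolds gave 0 overlaps with TEAD1, which allows up to 5.88%, and 2 with TEAD4. None of the 92 YAP peaks on TEAD1 overlapped a TAZ peak. Whether TAZ bound there below the threshold of the list was not tested.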

How the data were processed

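TAZ and YAP occupancy was compared between 2 deposited peak lists, each from 1 library. The authors' alignment used Bowtie2 and hg19, per the submitters' processing notes. Peak names begin with MACS, per the deposited lists, while the sources used here give no caller version, threshold, control or treatment of duplicate and multiply aligned reads. Each row gives a position and the authors' score, whose scale is not stated, and the score was used within a list alone. The lists hold no counts, so depth is unknown.

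Starts in lists without a header were taken as counted from 0 and raised by 1. Centromere gap positions are those of the hg19 assembly, entered by hand and not read from the files. Of all peaks in the 5 lists, 2 crossed a gap edge, by 3 and 7 bp. Distance was taken from the nearest peak edge. Groups follow the sample titles. Shared meant at least 1 bp in common, near a gap meant within 5 Mb, and sites joined peaks at most 25 kb apart. Intervals are exact Clopper-Pearson intervals at 95%, or exact order-statistic intervals for medians, and 0 peaks were read as allowing 3. For a difference of medians, the lower limit of one median was set against the upper limit of the other, and the reverse. Such an interval is not an exact 95% interval. No test between lists was made. Overlap, distance and medians were tested on simulated data.

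Members, lists and rules were chosen with earlier results of these data known. Peaks named by rule are the 10 highest-scoring shared TAZ peaks, the 5 highest of each list alone, the sites with the most peaks (5 with both lists, 3 of each list alone) and shared peaks away from gaps and scaffolds. Other named sites and peaks were chosen after their values were seen. Alternatives were other overlap rules, score thresholds, list sizes, chromosomes, joining distances and gap distances. Some alternatives were chosen after seeing the data. These were leaving out chromosome X with gl000199, the narrow runs of chromosomes 16 and 1, or the heterochromatin edges of chromosomes 16 and Y. Adding heterochromatin gaps and the restriction to gaps and scaffolds were also chosen then. Computations ran in SciPy 1.17.1, pandas 2.3.3 and NumPy 2.4.6 under Python 3.11.15, and matplotlib 3.10.9 drew the plots.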

Additional observations from a re-analysis of the deposited data

How the results depend on the processing

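No paired analysis was possible because each group had 1 library. Of 69 alternative values for 12 results, 54 stayed within the interval of the reported value (for bases, within a factor of 1.5) and 15 moved. A sign could change only in the 24 alternatives of the width and rank differences, and 0 of these changed sign. The share of TAZ peaks that overlapped YAP (22.9%) was 13.1% with centres at most 500 bp apart, 35.1% at or above the median scores and 7.26% without chromosome X and gl000199. The share of YAP peaks that overlapped TAZ (10.6%) was 4.41%, 14.1% and 3.01% under the same settings, 14.5% with edges at most 1 kb apart and 18.95% with the YAP list cut to the size of the TAZ list. Shared bases were 5.20% of the union without chromosome X and gl000199, and the YAP rank difference was then 8.15 percentile points, from 28.6. With each site counted once, scaffolds held 16.1% of TAZ and 4.67% of YAP sites, and 32.2% of YAP sites on chromosomes lay near a gap. That YAP share was 70.4% at or above the median score and 66.8% without the narrow runs of chromosomes 16 and 1. Without chromosome X and gl000199 the intervals of the width and rank differences include 0 in both lists, as does that of the YAP rank difference with edges at most 1 kb apart. Why the 15 values moved was not tested. Some of the settings leave fewer peaks or sites, while others change the overlap rule alone. Depth is unknown, and the lists' different lengths limit every share given here.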
